A study of Mus musculus with 2 samples.

Results

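Arc, Bdnf, Homer1, Sorcs3, Rasgrp1 and Npas4 are 6 of the 32285 mouse genes in the tables, picked by symbol as a set of neuronal genes linked to synaptic activity. All 6 were found. They were measured by Visium spatial transcriptomics, in which a tissue section lies on a slide of barcoded spots and each spot counts the unique molecules (UMIs) of polyadenylated RNA released above it. A spot covers several cells, and fewer cells of a type and less RNA per cell cannot be told apart in it. There were 2 coronal sections, 1 from each of 2 mice, and both mice belonged to the same group. Both expressed hM3Dq, a designer receptor that excites the neurons carrying it when its ligand CNO is given, and both received CNO. The genotype of mouse 1 was given as a wild-type C57BL/6J control, and that of mouse 2 as a wild-type CRISPR-Cas9 edited isogenic control. The brains were fresh frozen without perfusion and trimmed at the sides, and the sections were cut 10 µm thick at 1.9 mm posterior to bregma, ahead of an injection site 4.6 mm posterior to bregma. The promoter that drives the receptor, the age and the sex of the mice were not stated. No section came from an untreated mouse, so the levels below describe where each transcript lay in stimulated brains and carry no measure of induction.

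When an excitatory neuron fires, calcium entry switches on transcription factors within minutes, and these in turn switch on effector genes whose products reshape synapses. Npas4 and Egr1 are such transcription factors. Bdnf encodes a secreted neurotrophin that acts on the receptor TrkB. Arc encodes a protein that promotes removal of AMPA receptors from the postsynaptic membrane, and Homer1 encodes a scaffold that ties metabotropic glutamate receptors to the postsynaptic density, of which a short activity-induced form uncouples them. Sorcs3 encodes a sorting receptor of the Vps10p family found at postsynaptic sites. Rasgrp1 encodes an exchange factor that loads Ras with GTP in response to calcium and diacylglycerol and so feeds the MAP kinase pathway.

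The tables held 30671753 UMIs over 3715 spots under tissue in mouse 1 and 55315952 UMIs over 3549 spots in mouse 2. Those with at least 500 UMIs were kept, 3712 and 3548 spots, with medians of 7557 and 14663 UMIs per spot. Mitochondrial genes took 13.3% and 15.4% of the UMIs of the kept spots. Of the spots, 3691 and 3539 were placed in 1 of 17 areas by marker genes, with none of the 6 genes nor Egr1 among the markers. The dentate granule layer held 80 and 99 spots, CA1 122 and 139, CA3 70 and 87, hippocampal neuropil 361 and 335, and thalamus 945 and 952 in mouse 1 and mouse 2. The neocortical upper layers held 123 and 66 spots, layer 4 68 and 48, layer 5 129 and 97, and layer 6 163 and 144. The marker sets had served to place the spots, so their levels by area are no independent check of the placing. All markers of dentate, CA1, neuropil and thalamus were higher in their own area than outside it in both mice, as were those of layers 4 and 6. For CA3 4 of 6 were, for the upper layers 5 of 6, and for layer 5 all 6 in mouse 1 but 4 of 6 in mouse 2. Of the retrosplenial set only 2 of 3 markers were, so that area is called the Tshz2-Npnt cortical area here. Of the clusters of spots that hold most of the neuropil, one led by haemoglobin genes had 235 spots in mouse 1 and 5 in mouse 2, and another, led by Ddn and Wipf3, had 32 and 222.

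**Figure D1:**
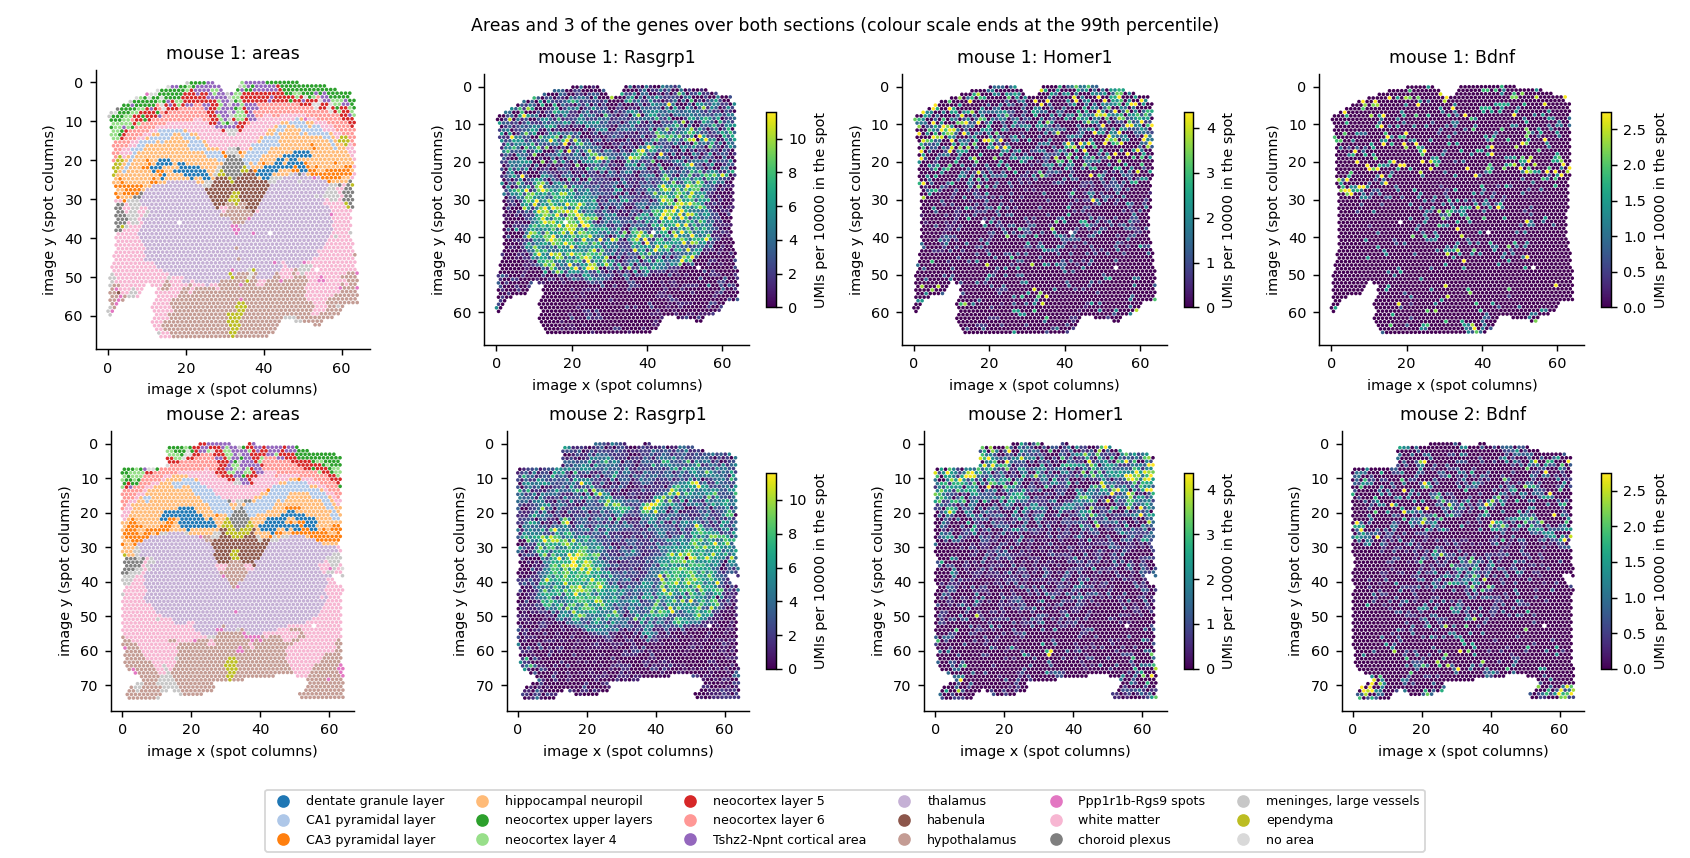
Both sections, mouse 1 above and mouse 2 below, drawn by image position in spot columns. The first panel of each row colours the areas, and the others give Rasgrp1, Homer1 and Bdnf as UMIs per 10000 of the spot. Rasgrp1 fills the thalamus and the pyramidal layers, Homer1 the neocortex and CA1, and Bdnf the CA1, CA3 and dentate cell layers, with further bright Bdnf spots at both lower corners of mouse 2.

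In the GRCm38 annotation, to which mm10 corresponds, Arc (ENSMUSG00000022602) lies on chromosome 15 from 74669081 to 74672570. Bdnf (ENSMUSG00000048482) lies on chromosome 2 from 109674700 to 109727043, and Rasgrp1 (ENSMUSG00000027347) on the same chromosome from 117279983 to 117342877. Homer1 (ENSMUSG00000007617) lies on chromosome 13 from 93303757 to 93405129. Sorcs3 (ENSMUSG00000063434) and Npas4 (ENSMUSG00000045903) both lie on chromosome 19, from 48206025 to 48805505 and from 4984353 to 5003439. No other RefSeq gene overlaps any of the 6, which matters because overlapping genes can share reads. A count per gene does not separate the short and long forms of Homer1 or the several first exons of Bdnf.

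The promoter windows below come from RefSeq on GRCm38.p6 and run from 250 bases before a transcription start to 50 bases after it. They are shown because they carry short matches to binding sequences of activity-dependent factors, searched on both strands: TGACG, the core of the cyclic AMP response element bound by CREB, and TCGTG, a core bound by NPAS4 with its partner ARNT. The capitals mark these matches, none of which overlaps another. Windows were found for 5 genes: 7 for Bdnf, 2 for Homer1 and 1 each for Rasgrp1, Npas4 and Sorcs3. The first window, on the minus strand at chr19:4989922-4990221, has 2 TGACG matches, at 179 and 169 bases before the start of Npas4. The second, on the plus strand at chr13:93303507-93303806, has 3 TGACG matches, at 56, 40 and 14 bases before the start of Homer1. The third, on the plus strand at chr2:109692186-109692485, belongs to 1 of the Bdnf starts and has 1 TGACG match 35 bases before it and 2 TCGTG matches 88 and 12 bases before it.
Npas4: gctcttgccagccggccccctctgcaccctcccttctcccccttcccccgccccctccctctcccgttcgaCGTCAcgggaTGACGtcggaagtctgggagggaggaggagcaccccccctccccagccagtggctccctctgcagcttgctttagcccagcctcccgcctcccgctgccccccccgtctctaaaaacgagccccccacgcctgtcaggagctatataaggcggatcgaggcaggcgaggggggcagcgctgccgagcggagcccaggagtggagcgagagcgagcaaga
Homer1: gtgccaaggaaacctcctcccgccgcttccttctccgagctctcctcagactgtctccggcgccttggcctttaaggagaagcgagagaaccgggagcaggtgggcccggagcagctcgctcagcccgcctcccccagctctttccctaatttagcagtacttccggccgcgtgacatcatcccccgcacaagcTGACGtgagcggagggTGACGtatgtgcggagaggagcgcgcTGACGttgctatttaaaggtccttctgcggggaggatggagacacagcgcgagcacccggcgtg
Bdnf: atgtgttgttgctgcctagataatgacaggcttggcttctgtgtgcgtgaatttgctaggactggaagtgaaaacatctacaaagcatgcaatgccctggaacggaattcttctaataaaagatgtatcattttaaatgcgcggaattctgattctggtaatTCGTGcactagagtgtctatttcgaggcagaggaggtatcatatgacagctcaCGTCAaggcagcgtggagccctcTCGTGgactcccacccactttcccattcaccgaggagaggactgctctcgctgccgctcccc

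Over all 32851 RefSeq mouse windows, 20.8% held TGACG and 16.04% held TCGTG, so either match is common. Among the other windows, 2 more of Bdnf held TCGTG, while the rest of the windows of Bdnf, the second of Homer1 and those of Rasgrp1 and Sorcs3 held neither run of letters. A match describes the letters and not a bound factor.

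Bdnf, the secreted ligand of the set, was concentrated in the hippocampal cell layers. In CA3 it reached 106 CPM (counts of the gene scaled to 1000000 UMIs in the area) in mouse 1 and 82.8 CPM in mouse 2, in CA1 68.0 and 80.0 CPM, and in the dentate granule layer 66.3 and 79.7 CPM. Next came the neocortical upper layers with 37.3 and 47.1 CPM, neuropil with 44.9 and 30.2 CPM, layer 4 with 30.0 and 34.9 CPM, and layer 6 with 29.0 and 34.5 CPM. The 3 cell layers stood above every other area in both mice, and CA1 and the dentate could not be ordered because their ranges over the mice overlapped. Layer 5 held 24.3 and 31.3 CPM, thalamus 16.3 and 22.5 CPM and white matter 5.87 and 11.1 CPM. Hypothalamus had 20.0 CPM in mouse 1 and 36.0 CPM in mouse 2, the widest gap between the mice among areas over 500 spots. The sections held 688 and 1658 Bdnf UMIs in all.

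Arc was spread more evenly over cortex and hippocampus, and the dentate granule layer was low. CA1 had 32.5 CPM in mouse 1 and 34.6 CPM in mouse 2, layer 6 36.5 and 28.6 CPM, the upper layers 24.9 and 39.3 CPM, layer 4 20.8 and 38.3 CPM, and layer 5 27.4 and 28.6 CPM. CA1 lay above layer 5 without overlap. The ranges of every other pair of these 5 areas overlapped, so they have no settled order. CA3 had 23.6 and 20.1 CPM and neuropil 24.1 and 18.3 CPM, against 8.29 and 15.6 CPM in the dentate, 6.604 and 6.803 CPM in thalamus and 5.44 and 6.05 CPM in hypothalamus. By their means thalamus and hypothalamus were the lowest of the 17 areas, and both mice had CA1, the neocortical layers, CA3 and neuropil above the dentate. The counts are small, with 5 and 28 Arc UMIs behind the dentate values and 32 and 83 behind those of CA1.

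White matter held more Arc than thalamus, at 30.2 and 21.8 CPM, and 1 cluster of spots carried much of it. That cluster, chosen after its values were seen, was led by Pvalb, Six3 and Gad1 and had 95 spots in mouse 1 and 80 in mouse 2, of which 83 and 71 had been placed in the white matter area. No named area of the marker sets describes it, so it is called by these genes. Its Arc level was 66.3 CPM (95% exact Poisson interval 52.2 to 83.0, counting error only) in mouse 1 and 47.9 CPM (37.2 to 60.7) in mouse 2, the first of 24 clusters ranked in each mouse. The next clusters had 41.5 CPM in mouse 1, in layer 6, and 35.0 CPM in mouse 2, in the upper layers. Egr1 was at 5.23 and 12.7 CPM in the same cluster, the lowest of the 24 in both mice, and Bdnf at 2.62 and 4.23 CPM. Pvalb, a calcium-binding protein of fast-spiking inhibitory neurons, stood at 4079 and 3652 CPM there. Inhibitory neuron markers summed to 2343 and 1961 CPM over the white matter area, and their part in its Arc level was not tested. Without this cluster the white matter held 20.9 and 17.3 CPM of Arc, an alternative added after the data were seen.

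Homer1 was highest in layer 6, and the other neocortical layers and CA1 followed. Layer 6 had 174 CPM in mouse 1 and 219 CPM in mouse 2, layer 4 143 and 176 CPM, CA1 131 and 171 CPM, the upper layers 129 and 165 CPM, and layer 5 111 and 154 CPM. The order of these 5 areas was the same in both mice, although the ranges of neighbours overlapped. Below a gap came neuropil with 93.0 and 99.6 CPM, the Tshz2-Npnt cortical area with 84.1 and 108 CPM, and CA3 with 74.3 and 103 CPM, whose ranges overlapped. The dentate had 68.0 and 73.6 CPM, below CA3 in both mice and without overlap. Thalamus held 34.7 and 34.6 CPM and habenula 14.6 and 24.9 CPM, the lowest level of all areas in both mice.

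Sorcs3 had 1 clear peak. CA1 held 62.9 CPM in mouse 1 and 67.5 CPM in mouse 2, and the highest value of any other area was 43.5 CPM, in the 27 Ppp1r1b-Rgs9 spots of mouse 2. Thalamus had 27.7 and 33.7 CPM, layer 6 25.5 and 35.7 CPM, the upper layers 21.8 and 39.3 CPM, neuropil 23.0 and 31.5 CPM, and CA3 28.7 and 24.5 CPM, all with overlapping ranges. The dentate had 9.94 and 17.3 CPM and layer 5 6.32 and 15.7 CPM, against 10.5 and 14.0 CPM in white matter. Layer 4, at 27.7 and 16.6 CPM, and layer 6 held more than layer 5 in both mice.

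Rasgrp1 was the member with the most counts, 10266 and 20156 UMIs, and its areas separated most cleanly. Thalamus had 622 CPM in mouse 1 and 617 CPM in mouse 2 and CA1 581 and 652 CPM, with overlapping ranges, followed without overlap by CA3 with 510 and 564 CPM. Layer 6 had 414 and 409 CPM, neuropil 330 and 324 CPM and layer 5 305 and 296 CPM, each below the one before it in both mice. The upper layers with 228 and 263 CPM, layer 4 with 237 and 250 CPM and the dentate with 207 and 274 CPM could not be ordered. White matter held 112 and 123 CPM and hypothalamus 47.9 and 70.6 CPM. The thalamus alone accounted for 57.8% and 56.7% of all Rasgrp1 UMIs of the sections. Among the clusters of spots named thalamus, the one led by Prkcd, Rora and Zfp804a had 765 and 736 CPM, and the one led by Ramp3, Slc24a3 and Prkcd had 591 and 561 CPM.

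Npas4 was sparse, with 76 UMIs in mouse 1 and 125 in mouse 2. Layer 4 had 5 UMIs in each mouse, which is 11.5 CPM (95% exact Poisson interval 3.74 to 26.9) and 8.32 CPM (2.70 to 19.4). CA1 had 4 and 18 UMIs, or 4.06 CPM (1.11 to 10.4) and 7.50 CPM (4.45 to 11.9), and layer 6 had 8 and 9 UMIs, or 5.52 and 3.78 CPM. The intervals of layer 4 and CA1 overlapped in each mouse. Thalamus had 18 and 28 UMIs, or 1.89 CPM (1.12 to 2.98) and 1.51 CPM (1.005 to 2.18), and in mouse 2 this interval lay below that of CA1. The dentate had 2 and 1 UMIs, and habenula had 0 UMIs in mouse 1. A limit of 3 counts, which is not the end of a Poisson interval, would be 2.31 CPM there. Differences among most areas were not detectable at this depth, and Npas4 did not pass the filter on low counts for the tests between areas.

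**Figure D2:**
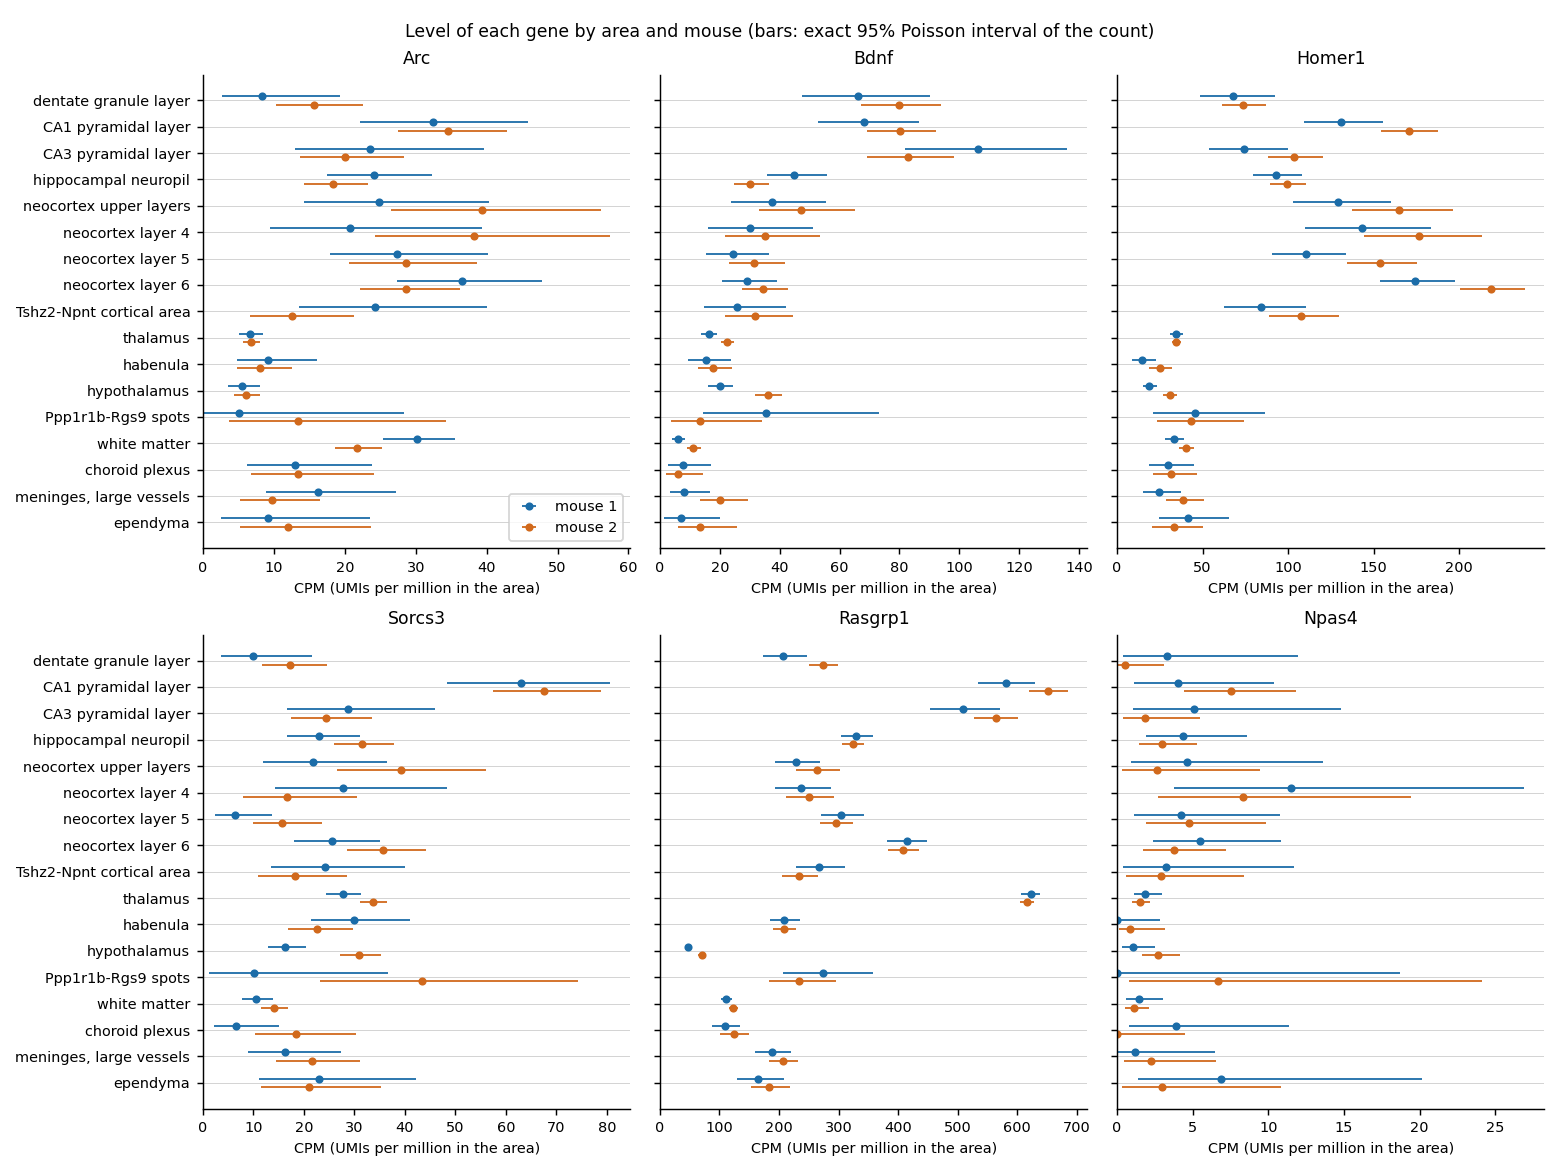
Level of each gene in CPM (horizontal axis, from 0, one scale per panel) in each of 17 areas, with mouse 1 in blue, mouse 2 in orange and bars for the exact 95% Poisson interval of the count. Bdnf peaks in the 3 hippocampal cell layers, Homer1 in layer 6, Sorcs3 in CA1 and Rasgrp1 in thalamus and CA1, while the Npas4 intervals are wide.

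Differences between areas were tested on UMIs summed per mouse and area, with the mouse as a block, by edgeR's quasi-likelihood test over 12442 genes with Benjamini-Hochberg adjustment. The 34 libraries share 1 estimate of the spread. With area and mouse in the model, the p-values rest on how far the 2 sections differ from each other in their pattern over areas. The other activity-regulated genes and partner genes were described as lists: 13 of 15 transcription factors, 30 of 32 other effectors and 31 of 32 partners of the 6 genes passed the filter. A log2 difference is the first named area minus the second.

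The dentate granule layer had less Arc, Homer1, Sorcs3 and Rasgrp1 than CA1, while Bdnf was not called. Of the 5 members tested 4 were called, all lower in the dentate, where 15.4% of all genes were called in either direction. The log2 difference was -2.10 ± 0.27 (SE, 2 mice) for Sorcs3 (edgeR adjusted p 3.3e-09), -1.27 ± 0.11 for Rasgrp1 (2e-15), -1.26 ± 0.30 for Arc (0.00098) and -1.11 ± 0.13 for Homer1 (6.3e-10). Each was lower in the dentate in both mice without overlap. Bdnf differed by 0.03 ± 0.20 (adjusted p = 0.963), and Egr1 by -1.61 ± 0.16 (3.7e-13). With spots thinned to 3000 UMIs the Arc difference no longer passed (adjusted p = 0.312). Among the transcription factors 1 was higher and 5 lower in the dentate (list median -0.82, all genes 0.00), with Jun at 2.74, Nr4a1 at -2.25 and Egr4 at -1.67. Of the effectors 3 were higher and 7 lower (median -0.28), among them the antiproliferative gene Btg2 at 2.64, the phosphatase Dusp5 at -2.46 and the kinase Plk2 at -1.57. Of the partners 6 were higher and 11 lower (median -0.20), with the scaffold Homer2 at -1.90, the Ras exchange factor Rasgrf2 at 1.79 and the MAP kinase Mapk3 at 1.62.

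Against CA3, the only member called in the dentate was Rasgrp1. It was lower by a log2 difference of -1.09 ± 0.11 (SE, edgeR adjusted p 5.1e-12), in both mice without overlap, where 14.1% of all genes were called. Values that did not pass were -0.38 ± 0.16 for Homer1 (adjusted p = 0.104), -0.74 ± 0.35 for Sorcs3 (0.164), -0.60 ± 0.35 for Arc (0.300), -0.25 ± 0.21 for Bdnf (0.506) and -0.13 ± 0.19 for Egr1 (0.741). Of these, Homer1, Sorcs3, Arc and Bdnf also lay lower in the dentate than in CA3 in both mice without overlap. With areas taken from named clusters instead of marker scores, Sorcs3 passed too (adjusted p = 0.0335). Of the transcription factors 1 was higher (Jun, 1.78) and 1 lower (Nr4a3, -1.70), of the effectors 4 and 5, and of the partners 3 and 7, with list medians of -0.01, -0.01 and -0.23, against 0.00 for all genes. The opioid precursor Penk stood at 2.81 and Homer3 at -1.95.

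CA1 exceeded CA3 in Sorcs3 and Homer1, as it did in Egr1. These were 2 of the 5 members, where 10.2% of all genes were called, and both lay higher in CA1 in both mice without overlap. The log2 difference was 1.36 ± 0.25 (SE) for Sorcs3 (edgeR adjusted p 1.9e-05), 0.72 ± 0.13 for Homer1 (1.4e-05) and 1.47 ± 0.16 for Egr1 (8.1e-12). Arc at 0.66 ± 0.27 (adjusted p = 0.124), Rasgrp1 at 0.17 ± 0.10 (0.341) and Bdnf at -0.27 ± 0.19 (0.468) did not pass. Even so, Arc and Rasgrp1 were higher and Bdnf lower in CA1 than in CA3 in both mice without overlap. Sorcs3 missed the threshold when spots were thinned (0.0633), and Rasgrp1 passed it with named clusters (0.0145). Of the transcription factors 5 were higher and 2 lower in CA1 (median 0.81, all genes 0.01), including Nr4a1 at 1.65 and Egr4 at 1.3. Of the effectors 5 were higher and 2 lower (median 0.19), with Penk at 2.22, Plk2 at 1.37 and the cyclooxygenase Ptgs2 at -2.10. Of the partners 7 were higher and 6 lower (median 0.08): within the Homer family, Homer2 at 1.39 and Homer3 at -2.85 differed in opposite directions.

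Hippocampal neuropil, where dendrites and axons lie apart from most cell bodies, had less Bdnf and Rasgrp1 than the 3 cell layers averaged. Bdnf was lower there than in each of the 3 in both mice, whereas Rasgrp1 was lower than in CA1 and CA3 and higher than in the dentate. Of the 5 members these 2 were called, where 20.8% of all genes were called. The log2 difference was -1.02 ± 0.16 (SE) for Bdnf (edgeR adjusted p 7.2e-07) and -0.29 ± 0.08 for Rasgrp1 (0.0070), while Egr1 was higher by 0.42 ± 0.11 (0.0037), although CA1 had more of it than neuropil in both mice. Homer1 at 0.07 ± 0.09, Sorcs3 at 0.09 ± 0.19 and Arc at 0.05 ± 0.20 had adjusted p-values from 0.638 to 0.907. Each of these was lower in neuropil than in CA1 and higher than in the dentate in both mice. Their values near 0 thus average layers on either side of neuropil and do not show equal levels. Without the mouse block neither Rasgrp1 (0.0951) nor Egr1 (0.158) passed, and Rasgrp1 did not with thinned spots (0.220). Astrocyte markers summed to 1850 and 1871 CPM in neuropil, against 874 to 1028 CPM over the cell layers, and excitatory neuron markers to 3390 and 3304 CPM, against 4445 to 6566 CPM. The part of these cells in the differences was not tested. In the lists, 2 transcription factors were higher and 1 lower in neuropil (median -0.04, all genes 0.01), 4 effectors higher and 2 lower (median 0.05), and 5 partners higher and 6 lower (median -0.01), with Fos at 1.08, the peptide precursor Adcyap1 at 1.10, the postsynaptic scaffold Shank1 at 0.73 and Homer2 at 0.65.

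Bdnf and Rasgrp1 were also lower 1 and 2 spots away from the cell layers than in them. At 0, 1 and 2 spots from the nearest cell-layer spot, Bdnf was at 77.9, 50.7 and 28.9 CPM in mouse 1 and at 80.7, 34.0 and 21.6 CPM in mouse 2. Rasgrp1 went through 458, 341 and 293 CPM in mouse 1 and 511, 348 and 291 CPM in mouse 2. Each of these steps was lower than the one before it in both mice. Homer1 had 98.1, 99.8 and 68.8 CPM in mouse 1 and 122, 90.2 and 96.7 CPM in mouse 2, and Arc had 23.4, 23.8 and 26.6 CPM and 24.7, 17.9 and 23.6 CPM, with no common direction. Sorcs3 had 39.0, 25.3 and 17.8 CPM in mouse 1 and 40.1, 32.3 and 33.9 CPM in mouse 2. From 3 spots on, only 17 and 39 spots remained. Bdnf was at 39.6 and 28.1 CPM there, from 3 and 11 UMIs, above the level at 2 spots in both mice. Rasgrp1 was at 356 and 263 CPM, above the level at 2 spots in mouse 1 and below it in mouse 2. Homer1 was at 119 and 164 CPM, from 9 and 64 UMIs, above each nearer step in both mice. Egr1, at 171 and 271 CPM, was above each nearer step too. Arc at 13.2 and 7.67 CPM and Sorcs3 at 13.2 and 20.5 CPM were below the level at 2 spots in both mice.

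Within the neocortex, layer 6 exceeded layer 5 in Homer1, Rasgrp1 and Sorcs3, as it did in Egr1. These were 3 of the 5 members, where 5.7% of all genes were called. For Sorcs3 layer 5 was the lowest of the 4 layers in both mice, and layer 6 was below layer 4 in mouse 1 and below the upper layers in mouse 2. The log2 difference was 1.35 ± 0.32 (SE) for Sorcs3 (edgeR adjusted p 0.0031), 0.50 ± 0.11 for Homer1 (0.00088), 0.40 ± 0.11 for Rasgrp1 (0.0113) and 0.95 ± 0.13 for Egr1 (1e-07), each higher in both mice without overlap. Arc at 0.12 ± 0.25 and Bdnf at 0.12 ± 0.27 did not pass (0.892 and 0.898). All 3 member calls were lost without the mouse block (adjusted p from 0.0598 to 0.160), with clearly placed spots only (0.103 to 0.313) and with thinned spots (0.171 to 0.258). Among the transcription factors 3 were higher and none lower (median 0.40, all genes 0.01), namely Egr1, Klf10 at 0.88 and Egr3 at 0.62. Of the effectors 3 were higher and 3 lower (median 0.07), with the pentraxin Nptx2 at 1.64, the cell cycle inhibitor Cdkn1a at 1.24 and the peptide precursor Adcyap1 at -1.51. Of the partners 1 was higher and 3 lower: Rasgrf1 at -1.19, the sorting receptor Sorl1 at -0.78 and the glutamate receptor Grm5 at -0.64.

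The upper layers had less Rasgrp1 than layer 6, at a log2 difference of -0.62 ± 0.12 (SE, edgeR adjusted p 0.00012), 1 of 5 members where 6.44% of all genes were called. The other members ranged from -0.31 ± 0.12 for Homer1 (adjusted p = 0.140) to 0.53 ± 0.29 for Bdnf (0.327), and Egr1 was at -0.54 ± 0.14 (0.0062), a call lost without the mouse block (0.233) and by DESeq2 (0.0522). Among the transcription factors 1 was higher and 2 lower (median 0.16, all genes -0.01), with Nr4a2 at -1.71. Of the effectors 5 were higher and 1 lower, with Adcyap1 at 1.66 and Dusp6 at 1.27, and of the partners 4 were higher and none lower (median 0.07), among them Rasgrf2 at 2.06 and Homer2 at 1.52. No member was called between layer 4 and the upper layers, where 0.466% of genes were, or between layer 5 and layer 4, where 0.217% were, and DESeq2 called none in either. Rasgrp1 between layer 5 and layer 4, at 0.30 ± 0.13 (edgeR adjusted p = 0.575), was the 1 member with an unadjusted p under 0.05 there. Of the lists in these 2 comparisons, the 1 gene called was the neuritin gene Nrn1, lower in layer 5 at -0.70.

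The neocortical layers together had more Homer1, Arc and Bdnf and less Rasgrp1 than the thalamus. These were 4 of the 5 members, where 47.8% of all genes were called, so a call is common in this comparison. The log2 difference was 2.35 ± 0.08 (SE) for Homer1 (edgeR adjusted p 4.7e-39), 2.32 ± 0.18 for Arc (2.4e-19), 0.90 ± 0.16 for Bdnf (1.5e-06), -0.94 ± 0.07 for Rasgrp1 (7.5e-19) and 2.35 ± 0.10 for Egr1 (3.5e-32). Every one of the 4 layers had more Homer1 and Arc and less Rasgrp1 than thalamus in both mice. Sorcs3 at -0.34 ± 0.16 (adjusted p = 0.0715) did not pass, but did when only the areas compared were fitted (0.0465) or no filter was set (0.0049). Of the transcription factors 12 were higher and 1 lower (median 2.35, all genes -0.06), with Egr4 at 4.62 and Egr3 at 4.58. Of the effectors 12 were higher and 5 lower (median 0.05), with Ier5 at 3.29, Penk at 3.20 and Ptgs2 at 2.54, and of the partners 11 were higher and 12 lower (median -0.10), with Sorl1 at 1.53 and Rasgrf2 at 1.52.

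Against the 3 hippocampal cell layers averaged, the neocortical layers averaged had more Homer1 and Arc and less Bdnf and Rasgrp1. These were 4 of the 5 members, where 25.7% of all genes were called. The log2 difference was -1.16 ± 0.13 (SE) for Bdnf (edgeR adjusted p 4.3e-11), -0.51 ± 0.06 for Rasgrp1 (3.1e-10), 0.75 ± 0.08 for Homer1 (3.9e-13), 0.57 ± 0.17 for Arc (0.0064) and 1.06 ± 0.09 for Egr1 (7.6e-17). Bdnf was lower in each neocortical layer than in each cell layer in both mice, while the other members overlapped between layers. CA1 had more Homer1 than the upper layers and layer 5 in both mice, and more Arc than layer 5. The dentate had less Rasgrp1 than layers 5 and 6 in both mice. The differences in Homer1, Arc and Rasgrp1 thus describe the averages and not every pair of layers. Arc did not pass with clearly placed spots only (0.168) or thinned spots (0.828), and Sorcs3 was at -0.29 ± 0.18 (0.265). Of the transcription factors 5 were higher and 2 lower (median 0.44, all genes -0.03), with Fos at 2.05 and Nr4a3 at -1.02. Of the effectors 12 were higher and 4 lower (median 0.21), with Adcyap1 at 2.01, the prohormone convertase Pcsk1 at 1.88 and Cdkn1a at 1.39, and of the partners 9 were higher and 10 lower (median -0.01), with Homer3 at -2.81, Sorcs1 at 1.94 and the AMPA receptor subunit Gria1 at -1.89.

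**Figure D3:**
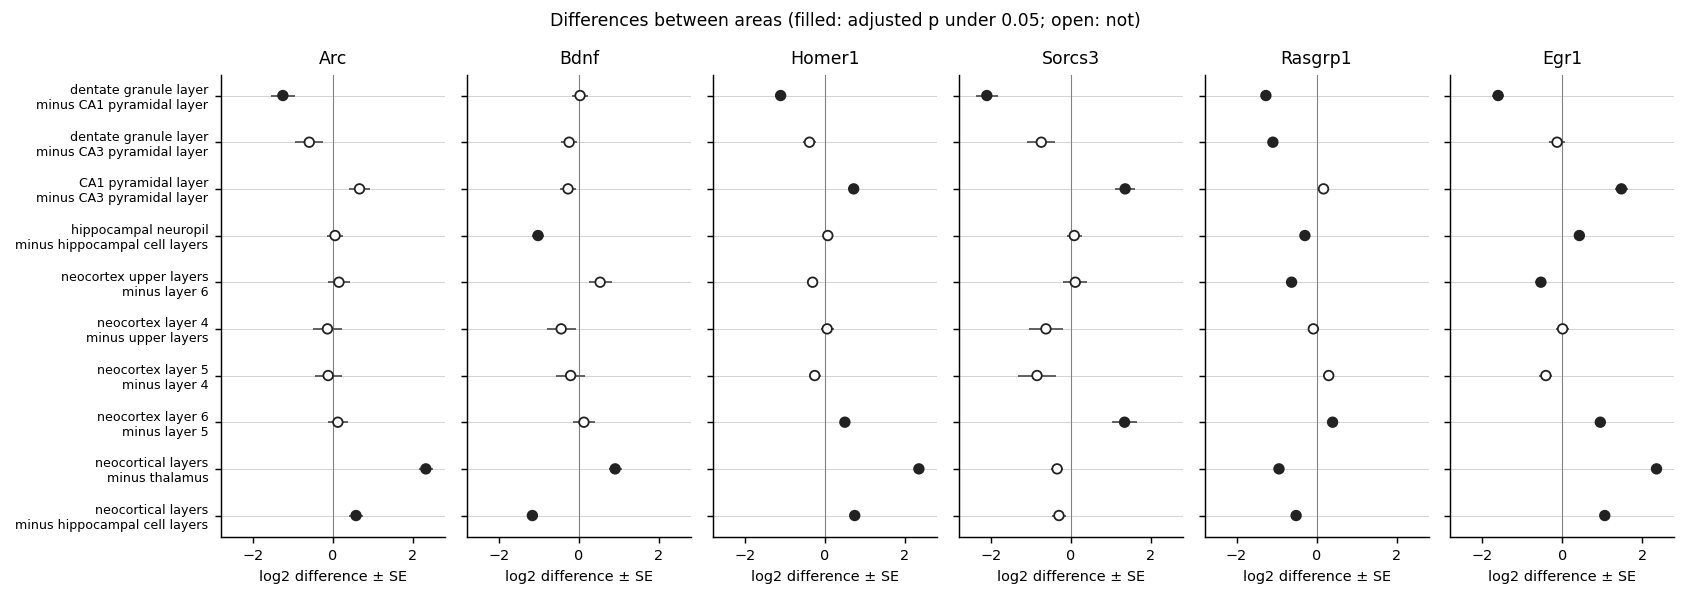
Log2 difference (first area minus second, bars 1 SE) of the 5 tested members and Egr1 in the 10 comparisons. Filled points have an edgeR adjusted p under 0.05. Homer1 and Egr1 lie on the same side of 0 wherever both were called, and Rasgrp1 lies opposite to Homer1 and Arc in both comparisons of the neocortical layers with other areas.

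Over single spots, Homer1 varied most with Egr1. The Pearson correlation of log(1 + UMIs per 10000) over the 3691 and 3539 spots in an area was 0.237 in mouse 1 and 0.436 in mouse 2 for Homer1, and 0.174 and 0.240 for Rasgrp1. It was 0.070 and 0.150 for Arc, 0.084 and 0.131 for Bdnf, 0.065 and 0.081 for Sorcs3 and 0.053 and 0.070 for Npas4. Among genes with at least 0.05 UMIs per spot, Homer1 ranked 51 of 10618 in mouse 1 and 10 of 12046 in mouse 2 by this correlation, and Rasgrp1 140 and 176, while Arc and Bdnf ranked between 464 and 759. The median gene was at -0.0013 and 0.00039. Spots of a section share a library, neighbouring spots share tissue and the second section is deeper, so these correlations are descriptions and carry no test.

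The correlations were lower for each member in both mice with each area's mean taken out. Homer1 was then at 0.048 in mouse 1 and 0.161 in mouse 2 and Rasgrp1 at 0.075 and 0.146, ranking 366 and 16, and 49 and 27, among genes. Arc was at 0.0096 and 0.031, Bdnf at 0.0083 and 0.045, Sorcs3 at 0.039 and 0.042 and Npas4 at 0.018 and 0.027, against a median gene at 0.0076 and 0.011. Such values are too near 0 in sparse counts to be read. With every spot thinned to 3000 UMIs, Homer1 was at 0.103 and 0.226 over all areas and at 0.0044 and 0.112 within them, and Rasgrp1 at 0.096 and 0.089 over all areas and at 0.027 and 0.020 within them. In mouse 2, CA1 spots above that area's median Egr1 share held 188 CPM of Homer1 and 747 CPM of Rasgrp1, against 150 and 542 CPM in spots at or below it. The same split in mouse 1 gave 135 CPM of Homer1 and 590 CPM of Rasgrp1, against 127 and 571 CPM. Arc in layer 6 had 43.5 CPM above and 29.4 CPM at or below the median in mouse 1, and 27.5 and 29.8 CPM in mouse 2, which go in opposite directions.

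**Figure D4:**
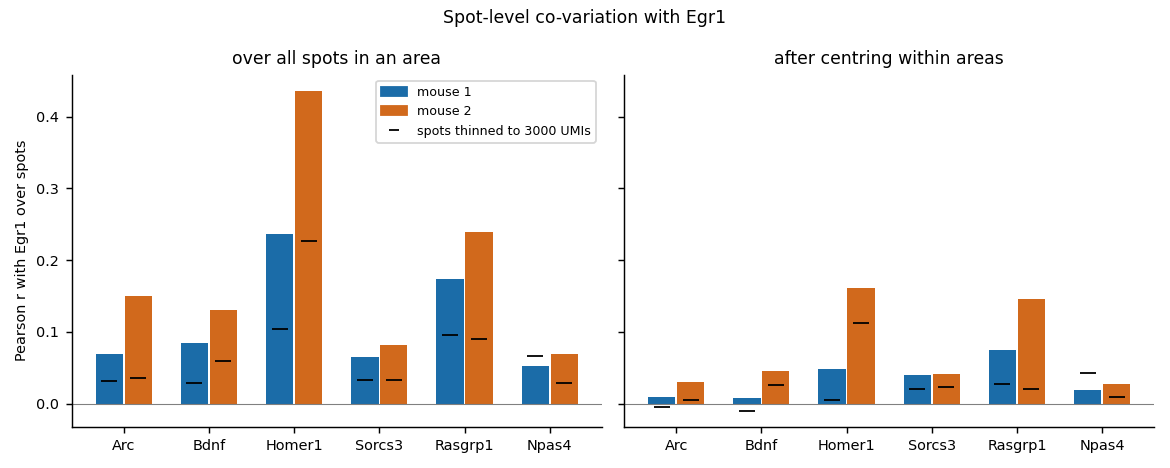
Pearson correlation with Egr1 over spots (vertical axis) for each gene, in mouse 1 (blue) and mouse 2 (orange), over all areas on the left and with area means removed on the right. Black marks give the value with spots thinned to 3000 UMIs. Homer1 is highest over all areas at 0.237 and 0.436, and values within areas are all under 0.17.

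Summed by area instead of by spot, the profiles came closer to Egr1. Over the 34 libraries, centred within each mouse, the correlation of log2 CPM with Egr1 was 0.94 for Homer1, 0.76 for Arc, 0.62 for Npas4, 0.55 for Rasgrp1, 0.53 for Bdnf and 0.37 for Sorcs3. These points share animals and areas, and no test was made. Among 6713 other genes with a mean of at least 20 CPM, the profile of Homer1 was most like Vxn (0.93), Inka2 (0.93) and Lmo4 (0.92), and that of Arc most like Vxn (0.86), Lrrc8b (0.84) and Gm11549 (0.83). Vxn was 1 of the markers used to place layer 6. Among the genes most like Bdnf were Arhgef25 (0.92) and Arpc3 (0.90), and Rasgrp1 was most like Atp2b1 (0.93), Slc24a2 (0.89) and Cck (0.88). Sorcs3 reached 0.71 with both Adgrb3 and Tlk1, and Npas4, at a mean of 3.40 CPM, 0.71 with Myl4 and 0.66 with both Tbr1 and Ccn3.

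**Figure D5:**
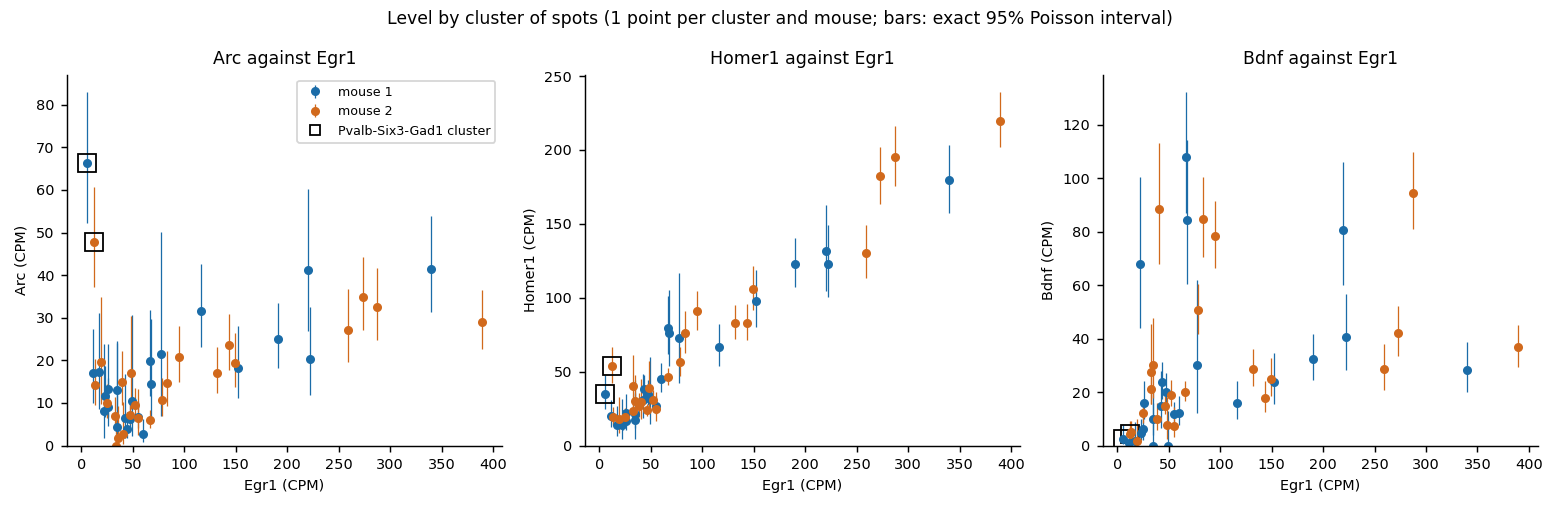
Arc, Homer1 and Bdnf in CPM (vertical axes) against Egr1 in CPM (horizontal axes), 1 point per cluster of spots and mouse, with exact 95% Poisson intervals. Homer1 climbs with Egr1 over the clusters, whereas the boxed Pvalb-Six3-Gad1 cluster has the most Arc, 66.3 and 47.9 CPM, at the lowest Egr1.

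Bdnf was also high in 1 small cluster of spots, likewise picked after its values were seen. This cluster of 32 spots in mouse 1 and 29 in mouse 2, led by Calb2, Nptxr and Gbx2, held 68.1 CPM of Bdnf (95% exact Poisson interval 44.1 to 101) and 88.4 CPM (68.0 to 113), which is in the range of the dentate and CA1. Its Egr1 was at 21.8 and 40.7 CPM and its Arc at 8.17 and 2.81 CPM, from 3 and 2 UMIs. Marker scores put it nearest to the hypothalamus set, but none of its leading genes belongs to that set. Gbx2, Necab1 and Slc17a6, all among its leading genes, were also leading genes of clusters named thalamus. The cluster stays unnamed.

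The injection had been made on 1 side, but which side of the image that is was not stated, so sides were compared only as image left minus image right. Whether both sections were mounted the same way round was not stated either. The same left minus right difference was fitted for both mice, so differences of opposite sign could cancel. The comparison therefore cannot tell whether the injected side differed. Over 16 areas, edgeR called 80 of 182272 gene tests (0.0439%), and no member was called in any of the 19 side comparisons. Of the 95 tests of members in them 5 had an unadjusted p under 0.05, and DESeq2 called none. Over all 11392 genes, the number with an unadjusted p under 0.05 ran from 302 in thalamus to 989 in meninges and large vessels. The count for the members therefore does not set them apart from other genes. Over the 4 hippocampal areas together, where 0.0527% of genes were called, the log2 difference was -0.16 ± 0.08 (SE) for Rasgrp1 (edgeR adjusted p = 0.999), -0.18 ± 0.22 for Arc, 0.11 ± 0.11 for Bdnf, 0.01 ± 0.09 for Homer1, -0.01 ± 0.18 for Sorcs3 and -0.01 ± 0.09 for Egr1. Rasgrp1 was lower on the left by 0.16 in each mouse. No gene was called over the neocortical layers by edgeR, with 547 genes at an unadjusted p under 0.05, or by DESeq2. The member with the smallest unadjusted p was Sorcs3 in thalamus, at 0.44 ± 0.14, higher on the left in both mice and with an adjusted p of 1.0 by edgeR. Of the listed genes only Penk was called, in the meninges at 2.99 ± 0.49 (edgeR adjusted p 0.00011), where 0.263% of genes were called.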

How the data were processed

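Visium sections of 2 mice of 1 group were analysed. The deposited files hold raw UMI counts per gene and spot, which per the file headers came from Space Ranger 1.3.1. The build was mm10, per the submitters' processing notes. For the gene annotation, no version is given in the sources used here. The deposited positions are pixel coordinates and served to place spots. Spots with at least 500 UMIs were kept. Spots were clustered (scanpy 1.11.5, Leiden resolution 2, 30 clusters, the activity-regulated genes left out), and clusters were named by mean marker score. Spots of clusters named for neocortex or hippocampus, in connected patches of at least 100 spots, were scored within that group only, with markers weighted by their mutual correlation. The rest were scored over the other areas. Each spot went to the area with the highest score, smoothed over neighbours with a weight of 0.25. Hippocampal spots where no cell layer score reached 0.75 were called neuropil, whatever their neuropil score. The members, the marker sets and the gene lists were chosen with earlier results of these data known.

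UMIs were summed per mouse and area (34 libraries), filtered with filterByExpr and fitted on all genes with edgeR 4.0.16 (TMM, quasi-likelihood, mouse as block, Benjamini-Hochberg, threshold 0.05). The mouse is the block because areas of 1 section come from the same animal. The image sides were fitted alike on 64 libraries and 11392 genes. DESeq2 1.42.0, RLE size factors, no filter, no block, only the areas compared, named clusters, clearly placed spots and spots thinned to 3000 UMIs were alternatives. The fits and the correlation, interval and motif functions were tested on simulated data. Levels are CPM of the summed counts, and exact 95% Poisson intervals cover counting error only. For a count of 0 the limit given is that of 3 counts and not the upper end of the Poisson interval. Genes named in the text are the 6 members and Egr1, up to 3 called genes per list and comparison with the largest difference and the same direction in both mice (Egr2 is left out because it had almost no counts in thalamus), listed genes called between sides, and the 3 genes most like each member over the libraries, outside the lists. A few genes that this rule names are not reported here. The sections share 3366 spot barcodes, which are positions on the array and not cells.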

Additional observations from a re-analysis of the deposited data

How the results depend on the processing

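The 5 tested members kept their direction in every alternative for the comparisons in which they were called, and no result reversed. The number of members called moved in 7 of the 10 comparisons between areas. Between dentate and CA1 it was 3 with thinned spots, against 4. Between dentate and CA3 it was 2 with named clusters, against 1. Between CA1 and CA3 it was 1 with thinned spots and 3 with named clusters, against 2. Between neuropil and cell layers it was 1 without the mouse block and 1 with thinned spots, against 2. Between layer 6 and layer 5 it was 0 without the mouse block, 0 with clearly placed spots only and 0 with thinned spots, against 3. Between neocortex and thalamus it was 5 when only the areas compared were fitted, 5 with named clusters and 6 without the filter, against 4, with Npas4, which could then be tested, among those called in the last 2 settings. Between neocortex and hippocampal cell layers it was 3 with clearly placed spots only and 3 with thinned spots, against 4. Of the 67 calls of listed genes named by the rule, 22 did not pass with thinned spots, 13 without the block, 7 with clearly placed spots, 4 by DESeq2 and 3 with named clusters. Over all genes, dropping the block took the calls to 1250, 1114, 832, 1499, 382, 29, 8 and 275 in the first 8 comparisons, against 1920, 1749, 1265, 2594, 801, 58, 27 and 709 with it. Thinned spots, which left 7836 genes to test, gave 528, 466, 278, 743, 356, 10, 4, 162, 3288 and 1153 calls in the 10 comparisons, against 5946 and 3200 for the last 2 at full depth. Fitting only the areas compared gave 113 calls between layer 4 and the upper layers, 90 between layer 5 and layer 4 and 1253 between layer 6 and layer 5, no filter gave 47 between layer 5 and layer 4, and clearly placed spots gave 439 between layer 6 and layer 5. Named clusters held no layer 4 or layer 5, so those comparisons were not run there. Over the 19 side comparisons the calls ran up to 30, to 3 without the block, to 52 without the filter and to 12 by DESeq2, and no member was called in any of them.

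Mean levels in the highest area moved by more than the SD between mice when mitochondrial genes left the total, to 37.2 CPM for Arc in CA1, 230.4 for Homer1 in layer 6, 72.4 for Sorcs3 in CA1 and 729 for Rasgrp1 in thalamus, against 33.5, 196.5, 65.2 and 619. With named clusters they were 36.8 for Arc, 72.1 for Sorcs3 and 609.8 for Rasgrp1, and TMM scaling gave 624 for Rasgrp1. Each mouse alone gave the values printed per mouse above. The mean correlation with Egr1 over all areas with thinned spots was 0.034 for Arc, 0.044 for Bdnf, 0.165 for Homer1, 0.033 for Sorcs3, 0.093 for Rasgrp1 and 0.047 for Npas4, and within areas -7.3e-05 for Arc, 0.022 for Sorcs3 and 0.023 for Rasgrp1. Within areas, Spearman's rho was 0.073 for Sorcs3 and 0.060 for Npas4, and Sorcs3 was at 0.036 given the UMIs per spot and at 0.044 with named clusters. A total without mitochondrial genes is smaller, which by definition raises every CPM. The cause of the other shifts was not tested.

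The limits are those of 2 sections of 1 treated group. The first section has fewer UMIs than the second, Npas4 and Arc rest on small counts in most areas, and the areas were rebuilt from markers. No untreated section was analysed here, so no level can be tied to the stimulation.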

Other observations

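Egr1 itself, the transcription factor against which the other genes were set, was highest in layer 6, at 329 CPM in mouse 1 and 389 CPM in mouse 2, without overlap with CA1 at 225 and 280 CPM, layer 4 at 207 and 269 CPM and the upper layers at 183 and 272 CPM. Layer 5 had 167 and 192 CPM, neuropil 133 and 166 CPM, CA3 82.7 and 97.8 CPM, the dentate 84.5 and 83.1 CPM, thalamus 50.7 and 54.4 CPM and habenula 23.9 and 27.97 CPM. In the white matter area, spots above the median Egr1 share held 55.2 CPM of Homer1 in mouse 1 and 60.5 CPM in mouse 2, against 27.2 and 29.0 CPM in spots at or below it. Rasgrp1 there was at 160 and 192 CPM above the median, against 98.1 and 82.2 CPM at or below it. In mouse 1 the white matter area held 195 Egr1 UMIs over 620 spots, so most of its spots had no Egr1 UMI. Spots above the median in mouse 1 were therefore those with any Egr1 UMI, the smaller group. The part of UMIs per spot and of cell content in these differences was not tested.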
